A study of Mus musculus with 16 samples.

Results

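The 7 genes described here encode the creatine kinases and the proteins that supply cells with creatine: Ckm, Ckb, Ckmt1, Ckmt2, Slc6a8, Gatm and Gamt. They were chosen by symbol, and each symbol matched 1 row of a table of 35275 genes. Of the 7, 5 passed a filter on low values (mean FPKM of at least 0.5 over all libraries), as did 11832 genes in all, and Ckmt1 and Ckmt2 did not. FPKM is the number of fragments scaled to gene length and to the fragments of the library, so levels can be compared between genes.

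Creatine kinase moves a phosphate between ATP and creatine, which lets muscle hold a store of phosphocreatine and refill ATP while it contracts. Ckm is the muscle form of the cytosol and Ckb the brain form, which many cell types use, and the 2 subunits can also pair with each other. Ckmt1 and Ckmt2 are the ubiquitous and sarcomeric forms of the space between the mitochondrial membranes. Muscle takes up most of its creatine from blood through the transporter Slc6a8. Gatm (arginine:glycine amidinotransferase) makes guanidinoacetate, and Gamt (guanidinoacetate methyltransferase) turns it into creatine, a pair of steps best known from kidney and liver.

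RNA was measured in C2C12, an established mouse myoblast line that forms myotubes when serum is withdrawn, described in the labels as PAX7 negative. There were 2 wild-type control populations (control lines 1 and 2) and 2 clones that lack 3 microRNA genes of one seed family (triple knockout, tKO): miR-206 and, besides it, both miR-1a-1 and miR-1a-2. Each was sampled in growth medium with 20% serum (GM) and after 3 days in 2% HS (DM3), with 2 culture replicates, called cultures 1 and 2 here. Every combination of genotype and stage held 4 libraries, and since 2 clones stand for the knockout, clone and genotype cannot be fully told apart. The labels do not say how the culture replicates were separated, so p-values measure the spread between these libraries.

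Depth was 22642563 to 56585952 fragments per library. The deletions themselves cannot be read from these values, since the microRNA genes were not analysed here. The transcript that hosts Mir206 (ENSMUSG00000099906) stood at 0.293 to 3.40 FPKM in control DM3 and 0.0957 to 0.925 FPKM in tKO DM3. In GM it was listed at 0 in every tKO library and at 0 to 0.0233 FPKM in controls. Of 11 muscle markers, 10 or 11 were above a floor of 3 fragments in every DM3 library, against 5 to 8 in GM. Myod1, a defining myoblast factor, was listed at 0 in all 4 control GM libraries and reached at most 0.0546 FPKM in tKO GM, while Des and Myf5 were present in every GM library. Endothelial markers summed to at most 0.435 FPKM in any library and neuron and glia markers to at most 0.951 FPKM. Those of macrophages reached 4.04, of osteoblasts 9.32 and of adipocytes 15.2 FPKM, and smooth muscle markers summed to 735.5 to 5442 FPKM. Markers of liver and kidney, the main creatine-making organs, stood apart in the GM libraries of culture 2 of control line 1 and of tKO clone 1. Their sum was 2.00 FPKM in the first and 5.56 FPKM in the second, led by Alb at 1.40 and 4.15 FPKM. Results in GM are therefore also given without both.

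The microRNA family acts through its seed, bases 2 to 8, in capitals in the mature miR-206 sequence, which is shown because its loss defines the tKO clones (RefSeq, GRCm38.p6, chr1:20679055-20679076, plus strand).
miR-206-3p: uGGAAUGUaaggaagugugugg
The sites that pair with it are ACATTCCA, ACATTCC and CATTCCA. None of these was present in the longest annotated 3′ UTR of any of the 7 genes, which were 123 to 1455 bases long. Among 10806 tested genes with a 3′ UTR, 19% held at least 1 of the 3 and 4.46% held ACATTCCA. A gene without such a site here is only one whose longest annotated 3′ UTR lacks these letters.

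The starts of 3 of the genes are shown because they went different ways on differentiation: Ckm and Ckb rose, and Ckmt2 stayed at a few fragments. Each sequence covers 250 bases before and 50 after the start (RefSeq, GRCm38.p6), and capitals mark matches to the E-box CANNTG or the MEF2 motif, searched on both strands. Ckm lies at chr7:19410844-19411143 (plus strand), Ckb at chr12:111672289-111672588 (minus strand) and Ckmt2 at chr13:91876836-91877135 (minus strand).
Ckm: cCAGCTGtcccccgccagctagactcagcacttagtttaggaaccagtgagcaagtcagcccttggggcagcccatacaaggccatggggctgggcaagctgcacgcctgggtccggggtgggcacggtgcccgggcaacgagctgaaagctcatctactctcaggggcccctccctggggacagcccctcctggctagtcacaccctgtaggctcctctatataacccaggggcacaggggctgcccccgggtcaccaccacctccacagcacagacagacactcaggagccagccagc
Ckb: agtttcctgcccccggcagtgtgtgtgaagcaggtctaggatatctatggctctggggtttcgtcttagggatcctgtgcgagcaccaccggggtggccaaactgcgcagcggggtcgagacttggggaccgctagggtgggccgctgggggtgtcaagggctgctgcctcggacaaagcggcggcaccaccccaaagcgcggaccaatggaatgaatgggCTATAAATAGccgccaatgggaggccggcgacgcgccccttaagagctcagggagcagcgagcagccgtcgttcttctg
Ckmt2: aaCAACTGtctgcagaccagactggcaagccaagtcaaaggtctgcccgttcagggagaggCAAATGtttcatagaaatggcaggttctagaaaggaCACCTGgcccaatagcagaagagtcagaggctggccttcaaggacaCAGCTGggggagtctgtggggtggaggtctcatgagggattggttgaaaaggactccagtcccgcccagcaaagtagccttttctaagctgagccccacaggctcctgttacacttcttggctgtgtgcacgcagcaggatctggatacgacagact
The Ckm window held 1 E-box, of the form CAGCTG, at its base 2. The Ckb window held no E-box and 1 MEF2 motif, beginning at base 222, which overlaps a TATAAA. The Ckmt2 window held 4 E-boxes, 1 of them CAGCTG. Among 32851 promoters of this length, 72.3% held an E-box, 16.3% held CAGCTG, 3.19% the MEF2 motif, 13.6% TATAAA on either strand and 1.63% a CArG box, which no window examined held. Slc6a8 was not examined. The Gamt and Gatm windows held 1 E-box each, and 1 of 2 Ckmt1 windows held a CAGCTG. These matches are descriptions of sequence and not measured binding.

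On the levels themselves, the transporter led. Slc6a8 was the highest of the 7 in 16 of 16 libraries, and Ckb was below both Gatm and Gamt in 16 of 16. In control GM the order was Slc6a8 at 85.3 ± 3.26 FPKM (SD, n = 4), Gatm at 33.5 ± 1.63, Gamt at 24.7 ± 4.55, Ckb at 3.47 ± 0.456, Ckm at 0.153 ± 0.228 and Ckmt1 at 0.107 ± 0.0914, with Ckmt2 last at 0.0196 ± 0.0272. The neighbours Ckm and Ckmt1 did not differ beyond their spread there. In control DM3 Slc6a8 was at 64.4 ± 4.65 FPKM, Gamt at 45.3 ± 3.47, Gatm at 29.2 ± 3.36, Ckm at 12.2 ± 4.0 and Ckb at 11.5 ± 1.80. Ckm and Ckb were within their spread of each other in control DM3. Gatm was above Gamt in 8 of 8 GM libraries, below it in 4 of 4 control DM3 libraries and above it in 2 of 4 tKO DM3 libraries.

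**Figure D1:**
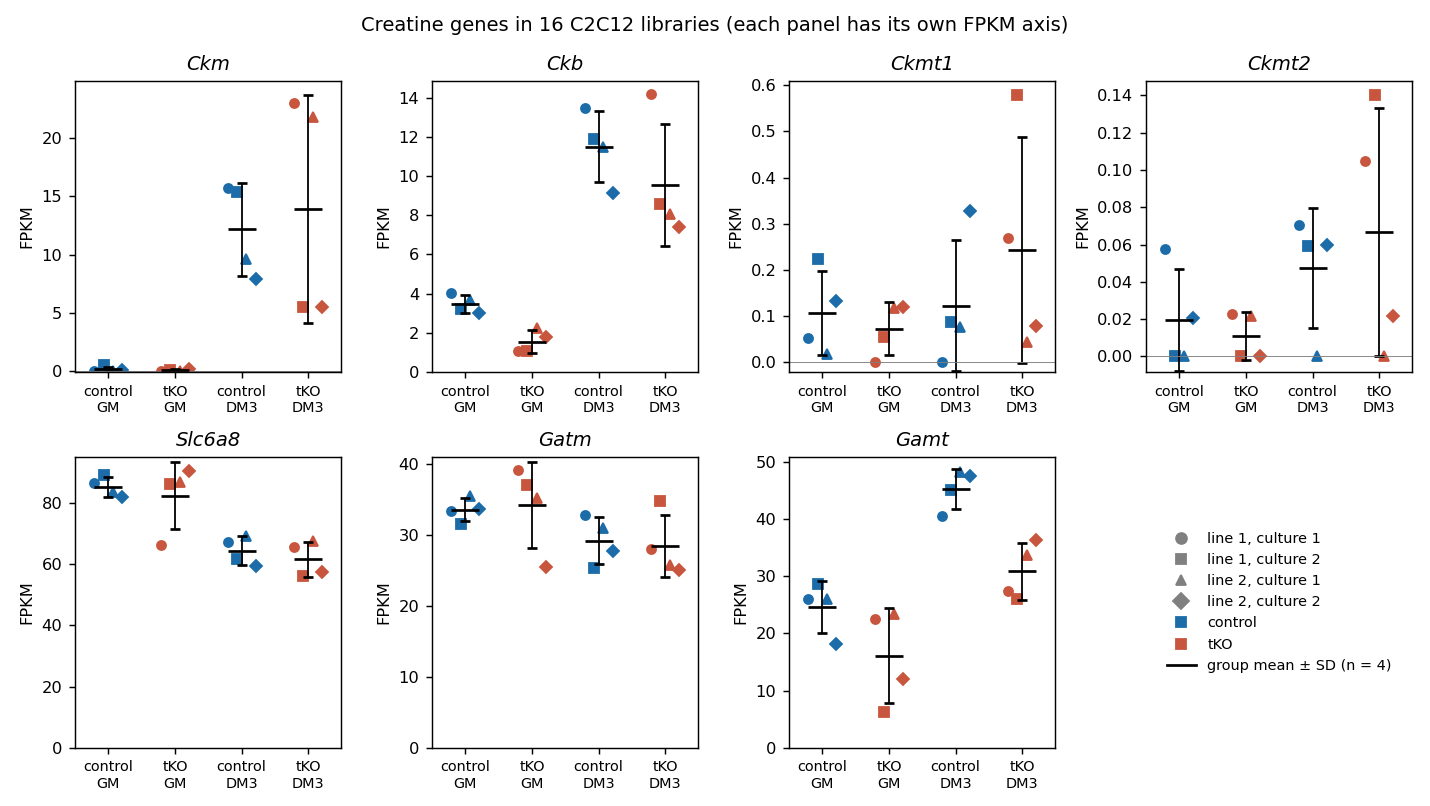
FPKM of the 7 creatine genes in each library, one panel per gene with its own axis; symbols mark line (or tKO clone) and culture, colours the genotype, and bars the group mean ± SD (n = 4). Ckm and Ckb lie higher in DM3 than in GM in both genotypes, Ckmt1 and Ckmt2 stay under 0.6 FPKM, and the tKO DM3 values of Ckm split by culture.

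Differentiation was the first comparison, and it asks which creatine genes change as myoblasts become myotubes. Ckm and Ckb rose in both genotypes, Gamt rose less, Slc6a8 fell in the values as deposited, and Gatm did not pass the test. In controls 3 of the 5 tested genes rose and 1 fell, where 23.2% of all tested genes rose and 38.3% fell. In tKO cells the counts were the same, 3 and 1, with 24.9% and 36% of all genes (limma, adjusted p under 0.05). The median log2 difference of the 5 was 0.87 in controls and 1.04 in tKO cells, against -0.15 and -0.12 for all tested genes. Ckm passed the filter only through its DM3 level, with GM means of 0.153 FPKM in controls and 0.0811 FPKM in tKO cells. It could thus hardly enter these counts other than as a riser, and counts and medians are tilted by that. In bulk RNA, a change in the share of cells that express a gene and a change in RNA per cell cannot be told apart. The summed level of 5 markers of dividing cells was 365 to 428 FPKM in control GM and 92.6 to 111 FPKM in control DM3, and their part in these differences was not tested.

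Ckm (ENSMUSG00000030399, chromosome 7, 19411094 to 19421583) was close to absent in growing cells. In control GM it was listed at 0 in culture 1 of both lines, with 0.483 and 0.130 FPKM in culture 2 of lines 1 and 2. In tKO GM it stood at 0.0477 and 0.0936 FPKM in cultures 1 and 2 of clone 1, and at 0.0225 and 0.161 FPKM in those of clone 2. These levels rest on 0 to 17 fragments per library, and the groups overlap. In control DM3 Ckm stood at 15.7 and 15.4 FPKM in cultures 1 and 2 of line 1 and at 9.66 and 7.86 FPKM in those of line 2, so both libraries of line 1 were above both of line 2. In tKO DM3 it stood at 23.0 and 5.50 FPKM in cultures 1 and 2 of clone 1 and at 21.8 and 5.47 FPKM in those of clone 2. Every DM3 library lay above every GM library. The log2 difference of (FPKM + 1) was 3.48 (SE 0.373) in controls and 3.51 (SE 0.373) in tKO cells (limma, adjusted p = 9.14e-07 and 7.73e-07). On the FPKM scale the ratio of group means was 79.3 in controls and 172 in tKO cells, and its denominators rest on 23 and 13 fragments in all. Within culture 1 alone the log2 difference was 3.74 in controls and 4.50 in tKO cells, and within culture 2 it was 3.22 and 2.53.

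Ckb (ENSMUSG00000001270, chromosome 12, 111669355 to 111672338) also rose, from a base that every GM library expressed. Control GM held 4.01 and 3.21 FPKM in cultures 1 and 2 of line 1 and 3.67 and 2.99 FPKM in those of line 2. Control DM3 held 13.5 and 11.9 FPKM in line 1 and 11.5 and 9.12 FPKM in line 2. The groups did not overlap, and the ratio of means was 3.31. In tKO cells Ckb went from 1.07 and 1.08 FPKM in clone 1 and 2.26 and 1.78 FPKM in clone 2 to 14.2 and 8.56 FPKM in clone 1 and 8.06 and 7.39 FPKM in clone 2. Here too the groups did not overlap, with a ratio of means of 6.17. The log2 difference was 1.48 (SE 0.190) in controls and 2.04 (SE 0.190) in tKO cells (limma, adjusted p = 5.74e-06 and 1.80e-07).

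The pool of cytosolic creatine kinase transcripts therefore changed in size and in make-up, and protein was not measured. The sum of Ckm and Ckb was 3.12 to 4.01 FPKM in control GM, 1.12 to 2.29 FPKM in tKO GM, 17.0 to 29.2 FPKM in control DM3 and 12.9 to 37.2 FPKM in tKO DM3. Ckm made up 0% to 13.1% of that sum in control GM and 0.985% to 8.28% in tKO GM. In control DM3 the share was 53.9% and 56.4% in line 1 and 45.6% and 46.3% in line 2, so it sorted by line. In tKO DM3 it was 61.9% and 73.0% in culture 1 of clones 1 and 2 and 39.1% and 42.5% in culture 2, so it sorted by culture. The shares are a description and were not tested.

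**Figure D2:**
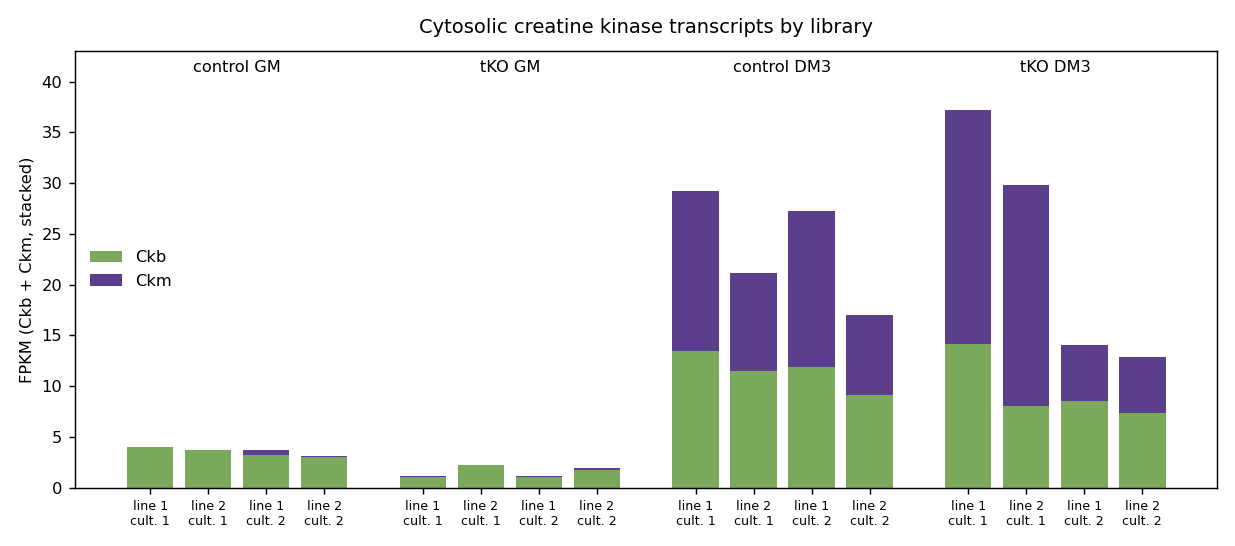
FPKM of Ckb and Ckm stacked for each of the 16 libraries, grouped by genotype and stage and, within a group, by culture. The 2 tKO DM3 libraries of culture 1 reach 37.2 and 29.8 FPKM, and those of culture 2 reach 14.1 and 12.9 FPKM, with most of the gap in the Ckm part.

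Gamt (ENSMUSG00000020150, chromosome 10, 80258151 to 80261012) rose by less than the kinases. Control GM held 26.0 and 28.6 FPKM in cultures 1 and 2 of line 1 and 26.0 and 18.1 FPKM in those of line 2. Control DM3 held 40.5 and 45.0 FPKM in line 1 and 48.2 and 47.5 FPKM in line 2, all above the GM libraries. In tKO GM it stood at 22.5 and 6.30 FPKM in clone 1 and at 23.5 and 12.1 FPKM in clone 2, and in tKO DM3 at 27.4 and 26.0 FPKM in clone 1 and 33.7 and 36.3 FPKM in clone 2. The tKO groups did not overlap, and both low GM values were from culture 2. The log2 difference was 0.87 (SE 0.283) in controls and 1.04 (SE 0.283) in tKO cells (limma, adjusted p = 0.0141 and 0.00440). Within culture 1 alone the tKO difference was 0.39 and did not pass (limma, adjusted p = 0.0594). Without control line 1 or without control line 2 the control difference was 1.11 or 0.63 and did not pass (limma, adjusted p = 0.0738 and 0.282).

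Gatm (ENSMUSG00000027199, chromosome 2, 122594467 to 122611303), which makes the precursor for Gamt, did not pass the test. It stood at 31.5 to 35.5 FPKM in control GM and 25.3 to 32.8 FPKM in control DM3, with overlap. In tKO cells it stood at 25.5 to 39.1 FPKM in GM and 25.0 to 34.7 FPKM in DM3. The log2 difference was -0.20 in controls (95% interval -0.48 to 0.085) and -0.25 in tKO cells (-0.54 to 0.031), with limma adjusted p = 0.211 and 0.113. With median-of-ratios scaling the control difference was 0.00087. The tKO difference passed within culture 1 alone (-0.45; limma, adjusted p = 0.0180), without culture 2 of tKO clone 2 in GM (-0.38; 0.0128) and without culture 2 of tKO clone 1 in DM3 (-0.35; 0.0322). The ratio of Gatm to Gamt FPKM was 1.1 to 1.86 in control GM and 0.561 to 0.810 in control DM3. It was 1.5 to 5.86 in tKO GM and 0.689 to 1.33 in tKO DM3, so the DM3 ratios were below the GM ratios within each genotype.

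Slc6a8 (ENSMUSG00000019558, chromosome X, 73673150 to 73682502), the creatine transporter, fell. Control GM held 86.5 and 89.3 FPKM in cultures 1 and 2 of line 1 and 83.5 and 81.9 FPKM in those of line 2. Control DM3 held 67.4 and 61.7 FPKM in line 1 and 69.2 and 59.4 FPKM in line 2, all lower. In tKO GM it stood at 66.2 and 86.1 FPKM in clone 1 and 86.7 and 90.4 FPKM in clone 2, and in tKO DM3 at 65.5 and 56.0 FPKM in clone 1 and 67.5 and 57.5 FPKM in clone 2. Culture 1 of clone 1 in GM is the library that makes the tKO groups overlap. The fall was 24.5% in controls and 25.2% in tKO cells by group means, with log2 differences of -0.40 and -0.41 (SE 0.106; limma, adjusted p = 0.00363 and 0.00334). This fall depends on the scaling. With median-of-ratios scaling the median of all tested genes moved from -0.15 to 0.0097 in controls and from -0.12 to 0.0064 in tKO cells. The Slc6a8 differences were then -0.20 and -0.25 and did not pass (limma, adjusted p = 0.214 and 0.123). Relative to the median of all genes, Slc6a8 was at -0.25 in controls as deposited and -0.21 with that scaling. Within culture 1 alone the differences were -0.31 and -0.19 and did not pass (limma, adjusted p = 0.121 and 0.325). The control call was also lost without line 1 (0.127) or line 2 (0.0622), and the tKO call without clone 2 (0.0897), all limma adjusted p. As deposited, 2743 genes rose and 4529 fell in controls and 2951 and 4257 in tKO cells, while with median-of-ratios scaling the numbers were 3611 and 3631, and 3571 and 3587.

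Over these stage comparisons, GM and DM3 libraries did not overlap for Ckm, Ckb, Slc6a8 and Gamt in controls and for Ckm, Ckb and Gamt in tKO cells. The same held for 64.4% of all tested genes in controls and 49.1% in tKO cells. Ckm is among the tested genes only through its DM3 level.

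The mitochondrial kinases were close to the limit of detection in every group. Ckmt1 (ENSMUSG00000000308, chromosome 2, 121357714 to 121363737) had 0 to 9 fragments per library in GM and 0 to 27 in DM3. Its highest value was 0.579 FPKM in culture 2 of tKO clone 1 in DM3, followed by 0.328 FPKM in culture 2 of control line 2 in DM3. Ckmt2 (ENSMUSG00000021622, chromosome 13, 91853387 to 91876885) had 0 to 3 fragments per library in GM and 0 to 6 in DM3, with at most 0.140 FPKM. A floor of 3 fragments, which covers counting error only, corresponds to 0.0357 to 0.0892 FPKM for Ckmt2. No GM library was above that floor for Ckmt2, and 2 of 4 DM3 libraries were in each genotype. Exact permutation tests (two-sided) over 70 splits of 4 against 4 libraries, in which no p under 0.0286 is possible, gave p = 0.229 to 0.886 for both genes in 4 comparisons. After Benjamini-Hochberg adjustment over the 8 tests these were 0.686 to 0.886. With 4 libraries a group, a single test at the smallest possible p cannot pass after adjustment over 8 tests, so these p-values do not show whether the levels differ.

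**Figure D3:**
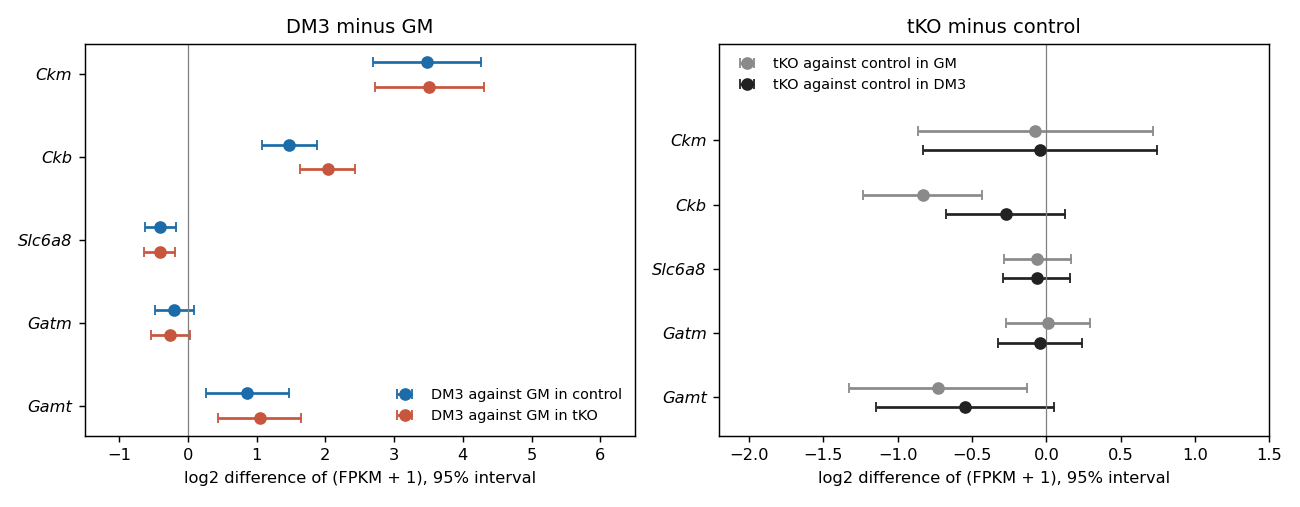
Log2 differences of (FPKM + 1) with 95% intervals from limma for the 5 tested genes, at left DM3 minus GM in control (blue) and tKO cells (red), at right tKO minus control in GM (grey) and DM3 (black). Ckm and Ckb lie right of 0 at left, and of the tKO differences only that of Ckb in GM (-0.83) passed the adjusted threshold.

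The second comparison, tKO against control in growth medium, asks which creatine genes differ between the tKO clones and the control lines before differentiation. Ckb was lower in tKO cells, at 1.55 ± 0.582 FPKM (SD, n = 4) against 3.47 ± 0.456 in controls. The highest tKO library, culture 1 of clone 2 at 2.26 FPKM, was below the lowest control library, culture 2 of line 2 at 2.99 FPKM. Both libraries of clone 1, at 1.07 and 1.08 FPKM, were below both of clone 2. The log2 difference was -0.83 (SE 0.190, 95% interval -1.23 to -0.43; limma, adjusted p = 0.0317). Ckb was the only 1 of the 5 tested genes past the threshold, where 1.51% of all tested genes were called lower, and its groups did not overlap, as for 8.62% of genes in that direction.

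The direction of the Ckb difference held in all 34 alternatives, from -1.21 to -0.56, but the call did not. It was lost in 16 of the 34, 1 of which was added after seeing the data, with limma adjusted p from 0.00378 to 0.691 over all of them. The main fit counts the cultures of a line or clone as separate units. With line averages as units the Ckb difference was -0.83 and did not pass (limma, adjusted p = 0.167). Leaving out any 1 of the 4 control GM libraries, either GM library of clone 1, clone 1 as a whole (-0.56; adjusted p = 0.107) or either control line ended the limma call. Without the 2 GM libraries with liver and kidney transcripts it was -0.77 (limma, adjusted p = 0.239), within culture 1 it was -0.89 (adjusted p = 0.542) and within culture 2 -0.77 (adjusted p = 0.0844). Of the fibroblast markers, Pdgfra differed with genotype in GM as well, while Dcn overlapped, at 0.429 to 4.08 FPKM in tKO and 1.35 to 3.45 FPKM in control GM. The summed level of Pdgfra, Dcn and Lum was 4.98 to 6.01 FPKM in control GM and 0.989 to 4.86 FPKM in tKO GM, and of the 2 tested, Pdgfra was lower (-1.27; limma, adjusted p = 0.00477), a call lost in 5 of 33 alternatives. Lum was at or near 0 in GM. Whether this bears on Ckb was not tested. The muscle marker Cdh15 was higher in tKO GM (1.47; limma, adjusted p = 0.000589), the only 1 of 11 muscle markers to pass. Of all 11832 tested genes, 65 were called higher and 179 lower in tKO GM.

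The other genes did not pass in GM. Gamt was at 16.1 ± 8.31 FPKM in tKO cells and 24.7 ± 4.55 in controls, with a log2 difference of -0.73 (95% interval -1.33 to -0.13; limma, adjusted p = 0.192). Its size rests on culture 2, in which the difference was -1.28, against -0.17 in culture 1. Without the 2 libraries with liver and kidney transcripts it was -0.30, and the lowest Gamt value of the study, 6.30 FPKM, is 1 of those 2. The difference was -0.076 for Ckm (95% interval -0.86 to 0.71), -0.060 for Slc6a8 (-0.28 to 0.16) and 0.012 for Gatm (-0.27 to 0.30), with limma adjusted p = 0.945, 0.819 and 0.981.

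The third comparison, tKO against control in DM3, asks the same of differentiated cells. None of the 5 tested genes passed, where 3.38% of all tested genes did (limma, adjusted p under 0.05), and none had an unadjusted p under 0.05. Gamt came nearest. Its tKO libraries, 26.0 to 36.3 FPKM, were all below its control libraries, 40.5 to 48.2 FPKM, as were 4.3% of tested genes. The ratio of means was 0.681 and the log2 difference -0.55 (SE 0.283, 95% interval -1.15 to 0.049; limma, adjusted p = 0.343). Over its alternatives the difference was -0.74 to -0.36 and never passed. It was -0.53 within culture 1 and -0.58 within culture 2. The 3 fibroblast markers summed to 28.6 to 37.5 FPKM in control DM3 and 6.82 to 16.9 FPKM in tKO DM3, and Dcn, 1 of the 2 tested, was lower (-1.65; limma, adjusted p = 0.0145), a call lost in 9 of 34 alternatives (adjusted p up to 0.327). Pdgfra, the other tested, did not pass in DM3. Lum, near 0 and not tested, went the other way, with a mean of 0.154 FPKM in tKO and 0.0334 FPKM in control DM3. The part of these transcripts in the Gamt values was not tested.

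For the other genes the DM3 differences were small beside their intervals, or hid a split between cultures. Ckb was at 9.55 ± 3.13 FPKM in tKO and 11.5 ± 1.80 in control DM3, a log2 difference of -0.27 (95% interval -0.68 to 0.13; limma, adjusted p = 0.495). Slc6a8 differed by -0.065 (-0.29 to 0.16) and Gatm by -0.043 (-0.33 to 0.24), with limma adjusted p = 0.816 and 0.910. Ckm differed by -0.043, with an interval of -0.83 to 0.75 (limma, adjusted p = 0.971). Whether the genotype difference changed with stage was tested as an interaction. None of the 5 genes passed, where 0.254% of all tested genes did. The interaction of Ckb was 0.56 (95% interval -0.0084 to 1.13; limma, adjusted p = 0.469), so the Ckb differences in GM and DM3 were not shown to differ. None of the 5 had an unadjusted p under 0.05 for it.

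The last comparison set the cultures apart within DM3. It was planned with the opposite directions of Ckm in the 2 cultures already known from earlier results of these data. Its p-values for Ckm are therefore not independent support for that pattern. In tKO cells Ckm was 22.4 FPKM on average in culture 1 and 5.49 FPKM in culture 2, and both clones showed it: 23.0 against 5.50 in clone 1 and 21.8 against 5.47 in clone 2. In controls the averages were 12.7 and 11.6 FPKM. The culture 1 tKO libraries were thus above all 4 control DM3 libraries, and the culture 2 tKO libraries were below all 4. The log2 difference between cultures was -1.85 in tKO cells (SE 0.265; limma, adjusted p = 0.0117), 1 of 5 tested genes lower, where 1.58% of all genes were. In controls it was -0.15 (95% interval -0.73 to 0.43; limma, adjusted p = 0.872), and none of the 5 passed or had an unadjusted p under 0.05, where 0.676% of genes passed.

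The genotype difference of Ckm in DM3 was 0.81 within culture 1 and -0.89 within culture 2, and neither passed. The limma adjusted p was 0.258 in culture 1 and no lower than 0.105 in any alternative of this difference. The test of the change between cultures, genotype by culture, gave -1.70 (SE 0.374, 95% interval -2.52 to -0.89) and did not pass (limma, adjusted p = 0.321). Only 0.00845% of tested genes, 1 gene, passed it. Ckm ranked 25 of 11832 by unadjusted p, a rank that does not stand in for passing. The culture call in tKO cells rests on 2 clones. It was lost with only the compared libraries in the fit (limma, adjusted p = 0.206), without culture 2 of clone 1 (0.0813) and without clone 1 (0.0955), while the difference stayed between -2.05 and -1.81 over 28 alternatives. Without clone 1 each culture is 1 library, and without its culture 2 that culture is, so both p-values take part of their spread from other groups. As deposited, 842 genes were higher and 187 lower in culture 2 of tKO DM3, and with median-of-ratios scaling 430 and 682, with Ckm at -2.05. In control DM3 those numbers were 41 and 39, and 30 and 58.

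Some muscle markers moved with the same split. Of 11 tested, 4 were lower, 1 was higher and 6 were not called in culture 2 of tKO DM3. Of all 11832 genes, 187 were lower and 842 higher there. The lower ones were Acta1, the skeletal actin (-2.32), Myh3, embryonic myosin (-2.02), Mylpf, a fast myosin light chain (-1.79), and Tmem8c, the fusion protein myomaker (-1.23). The higher one was Myf5, a myoblast factor (1.28), with limma adjusted p = 0.0220. Each of these 5 calls was lost in 3 to 6 of 28 alternatives, with the direction kept. Acta1 stood at 663 and 682 FPKM in culture 1 of clones 1 and 2 and at 115 and 157 FPKM in culture 2. The sum of the 11 muscle markers was 1754 and 1570 FPKM in culture 1 and 623 and 610 FPKM in culture 2. In control DM3 the sum was 1208 to 1699 FPKM. The cause of the split between cultures was not tested.

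None of the other 4 tested creatine genes passed between the tKO cultures. In tKO DM3 the culture difference was -0.39 for Ckb, -0.22 for Slc6a8, 0.015 for Gamt and 0.13 for Gatm, with limma adjusted p from 0.241 to 0.976. Slc6a8 was lower in culture 2 of both clones, at 56.0 and 57.5 FPKM against 65.5 and 67.5 FPKM in culture 1. It was lower in culture 2 of both control lines as well, at 61.7 and 59.4 FPKM against 67.4 and 69.2 FPKM. Ckb was lower in culture 2 of both clones too, by more in clone 1 (14.2 against 8.56 FPKM) than in clone 2 (8.06 against 7.39 FPKM). In controls Ckb was also lower in culture 2, at 11.9 against 13.5 FPKM in line 1 and 9.12 against 11.5 FPKM in line 2. The genotype by culture difference of Ckb was -0.15 and did not pass (limma, adjusted p = 0.881). Without clone 2 the Ckb difference between the tKO cultures was -0.67, which sets 1 library against 1.

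**Figure D4:**
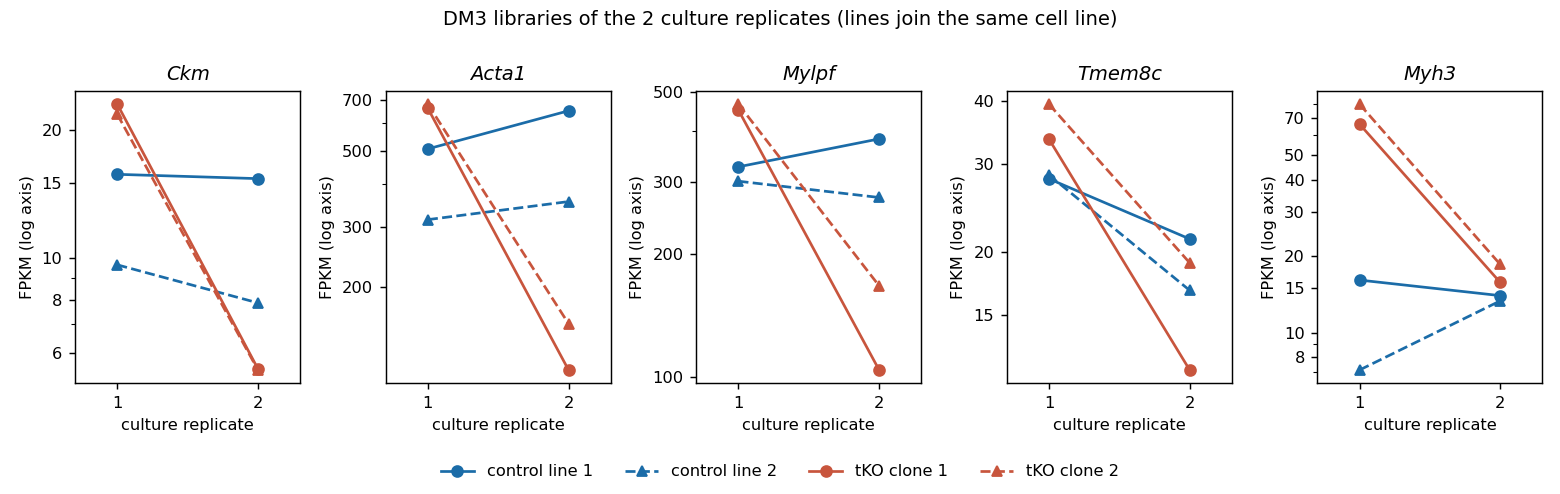
FPKM on log axes of Ckm and of 4 muscle genes in the 8 DM3 libraries, by culture replicate; lines join the libraries of 1 line or clone (blue control, red tKO, dashed for the second). In both tKO clones all 5 genes are lower in culture 2, and for Ckm the red lines cross the blue ones. The 4 muscle genes are those of 11 markers that were called lower in culture 2 of tKO DM3, so their direction follows from that choice. Myf5, called higher there, is not shown.

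Genes with the pattern most like each member were found by Pearson's r of log2(FPKM + 1) among 7794 protein-coding candidates with a mean of at least 5 FPKM. The r values are descriptions over libraries that share lines and stages. Over 16 libraries Ckm was most like Tnni2 (r = 0.986), Zkscan17 (0.985), Mylpf (0.984), Iffo1 (0.984) and Lama5 (0.983), of which Tnni2 and Mylpf encode fast muscle proteins. Over the 8 DM3 libraries its nearest were Iffo1 (0.941), Fbxl6 (0.939), Acta1 (0.937), Gmip (0.936) and Mcl1 (0.933). Ckb was most like Slc38a10 (0.974), Prune (0.974), Tmem160 (0.973), Stat3 (0.969) and Dnpep (0.967) over 16 libraries, and Cdc37 (0.984) over 8, with no gene shared with Ckm. Slc6a8 was most like Tmem120a (0.948) over 16 libraries and Ufc1 (0.992) over 8. Gamt was most like Nt5dc2 (0.964) over 16 libraries and Abhd11 (0.994) over 8, followed there by Dcn (0.983). Gatm had the weakest match over 16 libraries, Dnajc8 (0.865), and over 8 D19Bwg1357e (0.962). Between members, Ckm and Ckb had r = 0.912 over 16 libraries, 0.596 within DM3 and 0.068 within GM. Ckm and Slc6a8 had r = -0.749 over 16 libraries and 0.747 within DM3.

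The genes around the creatine system were described by lists. Among adenylate kinases and other nucleotide phosphotransferases, 12 of 15 were tested. In controls 1 rose and 7 fell on differentiation, and in tKO cells 2 rose and 6 fell (limma, adjusted p under 0.05). The list medians were -0.43 and -0.34, against -0.15 and -0.12 for all tested genes, of which 23.2% rose and 38.3% fell in controls and 24.9% rose and 36% fell in tKO cells. Nme6 fell by 1.61 in controls and 1.75 in tKO cells on the log2 scale, and Nme1 by 1.33 and 1.65. Ak1, the cytosolic adenylate kinase of muscle, was the riser shared by both genotypes (0.51 and 0.50), named after its values were seen. It stood at 130 ± 5.52 FPKM in control GM and 187 ± 18.9 in control DM3. No gene of the list passed between genotypes in either stage (limma), where 244 of 11832 tested genes did in GM and 400 in DM3.

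Partners that carry ATP and phosphate across the mitochondrial membranes were described next. Of 6 tested, 1 rose (Vdac1, an outer membrane channel, 0.34) and 1 fell (Vdac3, -0.36) in controls. In tKO cells 3 fell: Slc25a5, an ADP/ATP carrier (-0.61), Slc25a3, the phosphate carrier (-0.51), and Vdac2 (-0.50). Of all tested genes 23.2% rose and 38.3% fell in controls, and 24.9% and 36% in tKO cells. Counts this small do not set the list apart from those shares. The list medians were -0.10 in controls and -0.38 in tKO cells, against -0.15 and -0.12 for all genes. The calls of Vdac1 and Vdac3 were lost in 3 and 6 of 36 alternatives. Of 13 tested genes for creatine precursors and methyl donors, 3 rose and 6 fell in controls and 3 rose and 5 fell in tKO cells, shares near those of all tested genes (23.2% and 38.3%, 24.9% and 36%). Mat2a, which makes the methyl donor that Gamt uses, fell from 64.2 FPKM in control GM to 10.8 FPKM in control DM3, a log2 difference of -2.64, against -2.23 in tKO cells. Shmt1 fell by 2.03 and 2.20, and Ass1, an arginine-making enzyme, by 1.53 and 1.71. Ahcyl2 rose by 1.00 in controls. In the tKO DM3 cultures Mat2a was higher in culture 2 (1.73; limma, adjusted p = 0.0130), where Ckm was lower, a call lost in 6 of 28 alternatives. In control DM3 that Mat2a difference was 1.15 (limma, adjusted p = 0.106).

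On the side of ATP use, Myom1 and Myom2, proteins of the M-band of the sarcomere, where Ckm is known to be anchored, both rose. Of all tested genes 23.2% rose in controls and 24.9% in tKO cells. Myom2 went from 1.1 to 85.2 FPKM in controls and from 2.07 to 90.7 FPKM in tKO cells, and Myom1 from 0.140 to 8.64 and from 0.155 to 7.31 FPKM. Myom1 passed the filter only through its DM3 level, and Myom3 was not tested. Of 7 tested pumps and myosins that creatine kinase is known to supply, 4 rose and 1 fell in controls and 4 rose in tKO cells, where 23.2% of all genes rose and 38.3% fell in controls and 24.9% rose in tKO cells. Risers in both included Atp2a1, the calcium pump of fast muscle (5.46 and 3.70), Atp2a3 (0.69 and 1.32) and Myh3 (3.71 and 5.19). Myh3, at most 0.0102 FPKM in GM, and Atp2a1 also passed the filter only through their DM3 levels. They could hardly enter the count other than as risers, and it is tilted by that. Atp2a1 was the 1 gene of this list to differ between genotypes, in DM3, where 3.38% of all tested genes did. It stood at 54.2 FPKM in control DM3 and 15.2 FPKM in tKO DM3, a log2 difference of -1.93 (SE 0.303; limma, adjusted p = 0.00140), in the groups in which Ckm differed by -0.043. That call was lost in 2 of 34 alternatives. The Ckm value pools 0.81 in culture 1 and -0.89 in culture 2. Of this list 2 genes were lower and 1 higher in culture 2 of tKO DM3, where 187 of all 11832 genes were lower and 842 higher. Atp2a1 was among the lower ones (-1.25; limma, adjusted p = 0.0265), a call lost in 9 of 28 alternatives. Among 7 subunits of AMPK, the kinase that senses low energy, 2 rose and 3 fell in controls and 1 rose and 3 fell in tKO cells, which for controls is near the shares of all genes (23.2% and 38.3%) and for tKO cells stands beside 24.9% and 36%. Prkaa2, a catalytic subunit, rose in both (1.11 and 0.64), and Prkag2, a regulatory subunit, fell in both (-0.72 and -0.89). In culture 2 of tKO DM3 Prkab2 (0.71) and Prkag2 (0.66) were higher (limma, adjusted p = 0.0337 and 0.0236), calls lost in 12 of 28 and 7 of 27 alternatives. Prkab1 was lower in tKO DM3 (-0.45; limma, adjusted p = 0.0174), a call lost in 9 of 34. No gene of these lists passed between genotypes in GM (limma), where 244 of 11832 tested genes did.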

How the data were processed

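RNA-seq of poly(A)-enriched RNA from 16 C2C12 libraries was used as FPKM, the unit of the table the authors deposited. The submitters' processing notes name STAR, DESeq and mm10, with no versions. The strand setting is not given in the sources used here. FPKM multiplied by gene length and depth gave whole fragments for 100% of values (tolerance 0.05), from which depth and floors were taken.

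Tests used limma 3.58.1 in R 4.3.3 (trend and robust moderation) on log2(FPKM + 1) for genes with a mean of at least 0.5 FPKM, with 1 model of 4 groups over 16 libraries, or of group and culture for the culture comparisons, and Benjamini-Hochberg adjustment over all 11832 genes at 0.05. Fold changes on this scale understate those of low genes. Ckmt1 and Ckmt2, below the filter, had exact permutation tests. The fits were tested on simulated independent libraries with the same spread setting for every gene and no shared lines or cultures. That simulation therefore does not show how well the p-values hold for these libraries. Python 3.11.15, pandas 2.3.3, scipy 1.17.1 and matplotlib 3.10.9 were used for the rest.

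No pair of libraries within a group was alike within sampling noise (chi-square per degree of freedom 19.3 to 235.9 over 24 pairs). The same lines were sampled at both stages, and libraries of the same line and culture number had deviations with a mean r of 0.202 in controls and 0.198 in tKO cells. For the same line with the other culture number it was -0.220 in controls and 0.280 in tKO cells. The genes and lists were chosen with earlier results of these data known, and up to 4 passing genes per list and comparison are named by size of change. Some genes that this rule names are not reported here. Alternatives covered the pseudocount, filter, scaling, moderation, blocks, single libraries, lines, cultures and fragment numbers (voom). Leaving out both GM libraries with liver transcripts was chosen after seeing the data.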

Additional observations from a re-analysis of the deposited data

Results flagged for a closer look

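In 36 groups of 4 libraries examined, 2 held a library far from the other 3, and chance gives about 1 in 20. Ckmt2 was listed at 0 in culture 1 of line 2 in control DM3, while the other 3 libraries held 0.0595 to 0.0705 FPKM, which is 0 against a few fragments. The ratio of Gatm to Gamt was 5.86 in culture 2 of clone 1 in tKO GM, against 1.5 to 2.11 in the other 3, and that library also held liver transcripts, whose part in the ratio was not tested.

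The Ckm difference with genotype had opposite signs in the 2 DM3 cultures, a pattern known from earlier results of these data. The log2 difference of tKO against control was 0.81 in culture 1 and -0.89 in culture 2, and neither passed (limma). The test of the change between cultures gave -1.70 (limma, adjusted p = 0.321), short of the threshold. The threshold was passed without culture 2 of control line 2 (-2.14; limma, adjusted p = 0.0320) and without culture 1 of tKO clone 2 (-1.74; limma, adjusted p = 0.0305). Each of these leaves 1 combination of genotype and culture with a single library, which is assumed to vary like the other groups.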

How the results depend on the processing

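Of 1378 alternative values for the creatine genes, 1256 kept direction and side of the threshold, 29 lost a call, 6 gained one and 87 changed sign. The rises of Ckm and Ckb passed in all 36 alternatives in both genotypes. The cause of the changes below was not tested.

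In GM the count of creatine genes called between genotypes was 0 with no filter, median-of-ratios scaling, line averages, voom, culture 1 or culture 2 alone, and without both libraries with liver transcripts. The count for culture in tKO DM3 was 0 with only the compared libraries. With single libraries or lines left out, the counts were 0 to 1 in GM, 2 to 4 for stage in controls, 0 to 2 for culture in tKO DM3 and 0 to 1 for genotype by culture.

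The sign changes were in differences that had not passed. For genotype in GM, Ckm was 0.050 in culture 1, 0.046 without the liver libraries and 0.69 with voom, Slc6a8 0.044 in culture 2, and Gatm -0.044 as TPM, -0.059 without the liver libraries and -0.081 in culture 2. In DM3, Ckm was 0.81 in culture 1 and Gatm 0.15 in culture 2. For stage in controls, Gatm was 0.000867 with median-of-ratios scaling.
For genotype by stage, Ckm was -0.089 without the liver libraries, -0.69 in culture 2 and -0.79 with voom, and Slc6a8 0.070 as TPM and 0.13 in culture 1. Gamt was -0.25 without the liver libraries and -0.35 in culture 1, and Gatm 0.018 as TPM, 0.015 without the liver libraries and 0.23 in culture 2. For culture in tKO DM3, median-of-ratios scaling gave -0.19 for Gamt and -0.077 for Gatm. For genotype by culture, TPM gave 0.051 for Slc6a8 and 0.052 for Gamt.

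With single libraries or lines left out, the GM genotype differences were -0.17 to 0.052 for Ckm, -0.17 to 0.053 for Slc6a8, -0.16 to 0.18 for Gatm, -0.081 to 0.0069 for Ckmt1 and -0.021 to 0.0059 for Ckmt2. Those in DM3 were -0.43 to 0.34 for Ckm, -0.19 to 0.10 for Gatm and -0.0081 to 0.055 for Ckmt2, and the stage difference of Ckmt1 in controls was -0.067 to 0.070. Genotype by stage was -0.29 to 0.34 for Ckm, -0.10 to 0.089 for Slc6a8, -0.18 to 0.41 for Gamt and -0.19 to 0.014 for Gatm. Culture in controls was -0.59 to 0.29 for Ckm and -0.057 to 0.19 for Gamt. Culture in tKO cells was -0.22 to 0.25 for Gamt and -0.10 to 0.36 for Gatm. Genotype by culture was -0.53 to 0.22 for Ckb and -0.28 to 0.18 for Gamt.

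The labels do not say that a culture number marks a shared batch. Between genotypes, same-number r was 0.0955 to 0.452 in GM (mean 0.250) and -0.224 to 0.558 in DM3. The positive values in GM are a hint from the data that numbers share something there. The other-number r in GM was -0.419 to -0.0558 (mean -0.249). It mirrors the same-number values because deviations from a group mean cancel out, so it adds no evidence. A replicate block by culture within stage raised the genes called between genotypes in GM from 244 to 635. All blocks by culture or line changed 0 of 75 calls for the creatine genes, and in this balanced design a culture block cannot move a difference (Ckb in GM -0.83, limma adjusted p = 0.0164). Of 57 results for named genes of the lists, 32 kept their call in all alternatives and 0 changed sign. Depth limits Ckm in GM and the mitochondrial kinases, which rest on 0 to 27 fragments per library.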
